A study of Mus musculus with 27 samples.

Results

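The cortex of embryonic day 15.5 (E15.5) mice that had lost Bcl11a was compared with control cortex of the same age. The material was 6 of the 27 RNA libraries of the study, chosen by their titles. The 3 control libraries came from wild-type cortex. The 3 Bcl11a-CKO libraries came from mice of the genotype Emx1-Cre; Bcl11aFlox/Flox, in which Cre made from the Emx1 locus recombines the floxed Bcl11a alleles in the progenitors of the dorsal telencephalon. All animals were of the strain C57BL/6. In each group, the titles of replicates 2 and 3 differ by a final R or L after a common number, so these counts were summed and n was 2 units a group. The same age also had Bcl11ab-DCKO libraries, in which Emx1-Cre recombined Bcl11a and Bcl11b, and the study had matched groups at E13.5 and at birth (P0). By its title, the study asks how Bcl11 genes act as projection neurons of the cortex are made and mature.

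Bcl11a encodes a zinc-finger protein that binds DNA and acts largely as a repressor, with partners that include the NuRD and BAF chromatin complexes. In the cortex it is made by newborn projection neurons, with the highest levels in the deep layers. Deep-layer neurons are born first and include the corticothalamic neurons of layer 6 and the subcerebral neurons of layer 5, while later-born upper-layer neurons project mostly across the corpus callosum. Cajal-Retzius cells at the surface secrete Reelin, which guides the migrating neurons, and interneurons enter the cortex from the ventral telencephalon, outside the Emx1 lineage.

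The 6 libraries held 4313142 to 5173155 counts each and detected 17079 to 17326 genes. Levels are given as CPM (counts scaled to a common library size) after TMM scaling, which corrects for differences in composition between libraries. Libraries with the same title number were closer to each other than to the rest of their group, with a chi-square value per gene of 3.51 in the control and 3.68 in the Bcl11a-CKO, against 5 to 5.36 for the other pairs. Xist, the RNA that coats the inactive X chromosome, stood at 2600 CPM in control replicate 1 and 3129 in Bcl11a-CKO replicate 1. It stood at 4.07 to 8.93 CPM in the other 4 libraries. Eif2s3y of the Y chromosome had no count in replicate 1 of either group and stood at 85.4 to 91.4 CPM in those 4. Each group thus held 1 unit of each kind, female and male. Libraries with the same title number were thus also alike in Xist, which the chi-square values include. The closeness by title number and by Xist cannot be told apart here. Zbtb20 differed widely between the R and L libraries of 1 number, at 188.8 and 9.6 CPM in Bcl11a-CKO replicates 2 and 3. The cortical genes Emx1, Tbr1 and Neurod2 were present in each of the 6 libraries, and Ttr, the defining gene of choroid plexus, had no count in any. In bulk tissue, fewer cells of a type and less RNA per cell cannot be told apart. The 2 units of each E15.5 group compared differed in sex, so they were not 1 animal sampled again. The labels do not tie libraries to litters, and the spread behind a p-value may still be technical in part. In the main fit that spread, and each standard error (SE), was estimated over all embryonic units, including the earlier age and the Bcl11ab-DCKO. A gene that did not pass thus need not vary widely among these libraries.

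Bcl11a itself (chromosome 11, 24078056 to 24174123, mm10) stood at 744.6, 764.3 and 720.4 CPM in the control libraries and at 561.2, 562.5 and 582.0 in the Bcl11a-CKO. The groups did not overlap, and the log2 fold change of -0.39 ± 0.13 (SE, 2 units against 2) did not pass the test (edgeR's quasi-likelihood test, adjusted p = 0.176). The labels do not give the deleted part of the gene, so this count is no check of the deletion. Its paralog Bcl11b stood at 322.8, 333.2 and 327.0 CPM against 347.8, 365.5 and 376.9 (log2 fold change 0.14 ± 0.30, edgeR, adjusted p = 0.912). Of the 39 other genes tested within 5 Mb of Bcl11a, 0 were called by edgeR, 5 had an unadjusted p under 0.05, and DESeq2 called 1, the homeobox gene Otx1. Over all 14947 genes tested, edgeR called 1.94%, 1882 had an unadjusted p under 0.05, and DESeq2 called 383. These few genes are too close to those shares to be read as a result about the region.

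Of 14947 genes tested, 186 rose (1.24%) and 104 fell (0.696%) at an adjusted p of at most 0.05, 290 in all (1.94%), and 1882 had an unadjusted p under 0.05. Of the 290, 94 rose at least 2-fold and 49 fell at least 2-fold. The median of all log2 fold changes was -0.02. Of the called genes, 183 that rose and 103 that fell had no overlap between the 3 control and the 3 Bcl11a-CKO libraries, against 13.2% and 13.9% of all genes tested. The calls were made from these same libraries, so that lack of overlap is not a result. The count rests on few units: without control replicate 1 it was 62, without Bcl11a-CKO replicate 1 it was 70, and without the R and L pair of the control or of the Bcl11a-CKO it was 105 or 82. Each of these fits also left that group with a unit of a single kind by Xist, and the fit had no term for it. Fits of the 4 units alone gave 716 calls, and a fit that took each library as a sample of its own gave 646.

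**Figure D1:**
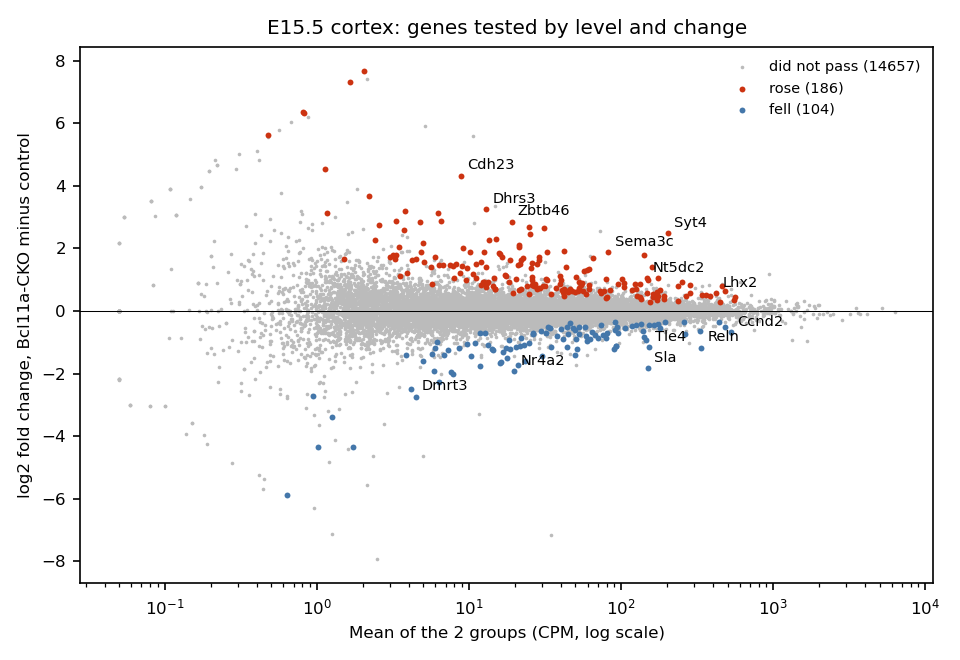
Each point is 1 of 14947 genes tested at E15.5, by its mean level in the 2 groups (CPM, log scale; means under 0.05 drawn at 0.05) and its log2 fold change in the Bcl11a-CKO. Red marks the 186 risen genes and blue the 104 fallen ones; fitted changes of genes with no count in 1 group depend on the model and are no bound.

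Among the named genes, 13 kept their call under every alternative tried, and these are the firmest of the differences. They are Nt5dc2, Zbtb46, Dhrs3, Zcchc24, Adgra1, Slit2, Ppp1r14c, Cdh4 and Cul7, which rose, and Ucp2, Megf10, Tle4 and Reln, which fell. The other 50 calls named here were each lost under at least 1 alternative. For 31 of them this happened only where leaving out libraries left 1 unit in a group. The remaining 19 were also lost in another way: Adamts12, Esrrb, Them5, Gm16013, 4930465M20Rik, Cdh23, Rasgrf1, Col4a6, Gadd45g, Tnfrsf18, Syt4, Adra2c, Neurog1, Pcdh17, Nxph4, Gfap, Dkk3, Eomes and Grik4.

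Nt5dc2, a gene of the haloacid dehalogenase-like hydrolase family, and Zbtb46 shared the smallest adjusted p. Nt5dc2 (chromosome 14, 31134853 to 31139121) stood at 94.4, 89.6 and 100.9 CPM in the control and at 192.1, 204.0 and 200.2 in the Bcl11a-CKO (log2 fold change 1.06 ± 0.09, edgeR, adjusted p = 4.06e-05). Zbtb46, a zinc-finger transcription factor gene known from dendritic cells (chromosome 2, 181387762 to 181459426), stood at 4.79, 5.66 and 3.11 CPM against 33.6, 34.7 and 30.8 (2.85 ± 0.23, adjusted p = 4.06e-05). Dhrs3, whose enzyme reduces retinaldehyde to retinol (chromosome 4, 144892827 to 144928209), stood at 2.59, 2.04 and 2.63 CPM against 22.7, 21.9 and 25.3 (3.24 ± 0.28, adjusted p = 4.66e-05). In all of them every mutant library lay far above every control library, and the libraries of a group lay close together. Zbtb46 and Dhrs3 were named from called genes without overlap, so for them the lack of overlap is not a result.

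Windows of 3 risen and 3 fallen genes, those with the smallest adjusted p among named genes with a usable RefSeq window, are shown. The sequence at a listed start site of each can thus be read beside its values. The RefSeq start used for Zbtb46 lies inside the gene of the deposited table, and that for Nt5dc2 before it. Whether these starts are used in the cortex was not tested. BCL11A is known to bind TGACCA. None of the 6 windows, from 250 bases before to 50 after the first start site listed, held TGACCA on either strand. The 250 bases before the start follow, 5′ to 3′ on the gene's strand, from RefSeq (GRCm38.p6), and capitals mark the looser TGNCCA on either strand.

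Zbtb46 (rose, chr2:181424389-181424638, minus strand): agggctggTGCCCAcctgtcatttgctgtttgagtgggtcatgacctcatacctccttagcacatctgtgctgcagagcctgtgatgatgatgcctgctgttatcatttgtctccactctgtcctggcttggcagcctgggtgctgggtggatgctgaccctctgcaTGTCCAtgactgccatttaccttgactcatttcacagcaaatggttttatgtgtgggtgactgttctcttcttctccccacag
Nt5dc2 (rose, chr14:31130839-31131088, plus strand): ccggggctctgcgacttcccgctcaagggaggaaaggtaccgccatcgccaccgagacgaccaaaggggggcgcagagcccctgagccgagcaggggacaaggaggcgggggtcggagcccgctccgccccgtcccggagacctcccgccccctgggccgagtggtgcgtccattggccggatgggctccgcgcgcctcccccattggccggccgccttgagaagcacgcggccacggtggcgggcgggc
Dhrs3 (rose, chr4:144892577-144892826, plus strand): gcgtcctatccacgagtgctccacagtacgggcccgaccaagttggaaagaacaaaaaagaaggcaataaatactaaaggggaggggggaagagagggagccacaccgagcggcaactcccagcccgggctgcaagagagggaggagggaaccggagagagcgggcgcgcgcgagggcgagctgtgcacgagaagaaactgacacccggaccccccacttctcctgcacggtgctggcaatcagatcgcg
Ucp2 (fell, chr7:100493108-100493357, plus strand): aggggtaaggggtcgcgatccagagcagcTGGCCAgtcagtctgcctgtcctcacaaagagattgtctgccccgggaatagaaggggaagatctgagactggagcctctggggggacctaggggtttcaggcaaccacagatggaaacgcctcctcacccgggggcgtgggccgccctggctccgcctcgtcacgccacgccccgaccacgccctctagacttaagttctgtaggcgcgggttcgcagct
Tle4 (fell, chr19:14598184-14598433, minus strand): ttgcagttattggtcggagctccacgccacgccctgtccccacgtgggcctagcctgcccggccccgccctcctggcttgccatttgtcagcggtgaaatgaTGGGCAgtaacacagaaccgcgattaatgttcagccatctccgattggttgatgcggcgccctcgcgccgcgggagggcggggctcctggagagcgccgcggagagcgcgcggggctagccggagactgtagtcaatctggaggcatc
Reln (fell, chr5:22344706-22344955, minus strand): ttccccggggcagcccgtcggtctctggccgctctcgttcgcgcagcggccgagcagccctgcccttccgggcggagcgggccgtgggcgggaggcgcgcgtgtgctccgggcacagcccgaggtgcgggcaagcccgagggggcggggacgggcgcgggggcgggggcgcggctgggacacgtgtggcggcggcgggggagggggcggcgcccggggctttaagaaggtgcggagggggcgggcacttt

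The share of windows with TGACCA was a little lower among called genes than among all genes, which was not tested. It lay in 13 of the 147 windows of genes that rose (8.84%), in 7 of the 81 of genes that fell (8.64%) and in 1093 of the 10471 of all genes tested (10.4%). Of 45 named and called genes with a usable window, 4 held it, against 10.4% of all genes tested. All 4 had risen, as had most of the 45. The shares over all called genes were alike in both directions, so the direction of these 4 is not a result. The 4 matches are shown with 20 bases on either side. Capitals mark the match, which in each lies on the other strand and so reads TGGTCA.

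Cdh23 (chr10:60696617-60696662, minus strand): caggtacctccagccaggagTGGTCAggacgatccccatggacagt
Gm16008 (chr4:156031696-156031741, minus strand): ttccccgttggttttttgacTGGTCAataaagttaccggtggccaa
Aldh1l1 (chr6:90550672-90550717, plus strand): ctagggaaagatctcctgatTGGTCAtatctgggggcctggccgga
Ppp1r14c (chr10:3366048-3366093, plus strand): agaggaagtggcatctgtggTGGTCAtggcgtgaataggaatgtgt

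The matches began 152, 59, 101 and 82 bases before the start site, in the order shown. The start used for Aldh1l1 lies inside the gene of the deposited table. A match is a run of letters and was not tested for binding here.

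The other genes that rose most were of many kinds. Zcchc24, a CCHC zinc-finger gene, stood at 9.77, 6.56 and 7.89 CPM in the control and 52.3, 49.8 and 57.0 in the Bcl11a-CKO (log2 fold change 2.67 ± 0.24, edgeR, adjusted p = 8.74e-05). Ppp1r14c, an inhibitor of protein phosphatase 1, stood at 7.58, 7.69 and 7.42 CPM against 44.5, 39.0 and 41.0 (2.47 ± 0.27, adjusted p = 0.000278). Adgra1, an adhesion G-protein-coupled receptor gene, had no count in control replicate 2 and stood at 1.20 and 2.63 CPM in the others, against 13, 8.52 and 10.4 (3.12 ± 0.32, adjusted p = 0.000239). The genes that rose most were taken from called genes without overlap between the groups, so that lack of overlap is not a result.

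Syt4, a synaptotagmin of secretory vesicles, was the most abundant of the genes that rose most, at 47.9, 69.0 and 77.3 CPM in the control and 409.1, 288.9 and 255.9 in the Bcl11a-CKO (log2 fold change 2.48 ± 0.37, edgeR, adjusted p = 0.00585). Htra1, a secreted serine protease, rose with a fold of 7.33 and Rgl3, a guanine nucleotide exchange factor of Ral, with a fold of 7.28. Adra2c, the alpha-2C adrenergic receptor gene, stood at 7.38, 2.26 and 4.31 CPM against 21.5, 28.1 and 26.2. Glt28d2 rose from 0.20, 1.36 and 0.72 CPM to 8.04, 4.90 and 6.59. The control libraries of Adra2c and Glt28d2 varied several-fold among themselves. None reached a mutant library, as the rule for naming these genes required.

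Cdh23, the cadherin of hair-cell tip links, had the largest fold of the called genes without overlap and at 5 CPM or more in 1 group, and an uneven one. Its control libraries held 1.00, 0.45 and 0.72 CPM and its Bcl11a-CKO libraries 28.6, 3.62 and 6.38 (log2 fold change 4.33 ± 0.92, edgeR, adjusted p = 0.0341). Replicate 1 thus lay several times above the other mutant libraries. Gm16008 and Tnfrsf18, a TNF receptor gene, rose together and cannot be told apart in full, since 54.3% of the exonic bases of Gm16008 and 27.2% of those of Tnfrsf18 lie in other genes, each partly in the other. Syt4 shares 14.5% of its exonic bases with Gm26658, and Ppp1r14c 29.2% with Gm26752. In all, 63 of the genes that rose and 33 of those that fell shared exonic bases with another gene, and their counts are uncertain in that respect.

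Ucp2, which encodes a mitochondrial uncoupling protein, had the smallest adjusted p of the genes that fell. Ucp2 (chromosome 7, 100493337 to 100502020) stood at 37.1, 33.9 and 32.1 CPM in the control and at 11.4, 10.6 and 12.5 in the Bcl11a-CKO (log2 fold change -1.60 ± 0.17, edgeR, adjusted p = 0.000278). Dmrt3, a doublesex-related transcription factor gene of medial cortical progenitors (chromosome 19, 25610537 to 25623920), fell furthest of the called genes without overlap and at 5 CPM or more in 1 group, from 6.58, 9.05 and 7.89 CPM to 1.89, 0.85 and 0.64 (-2.73 ± 0.38, adjusted p = 0.00195). Sla, a Src-like adaptor gene, was the most abundant of those that fell most, at 242.6, 203.4 and 243.7 CPM against 71.5, 72.0 and 47.4 (-1.83 ± 0.33, adjusted p = 0.0124). Megf10, which encodes an engulfment receptor, stood at 67.4, 66.7 and 59.6 CPM against 35.7, 35.1 and 33.4 (-0.90 ± 0.11, adjusted p = 0.000523). None of these groups overlapped, which the rule for naming required for all of these genes but Megf10.

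The other genes that fell most included Apobec1, a cytidine deaminase of RNA editing, with a fold of 0.206. Doc2b, a calcium sensor of vesicle release, stood at 10.6, 14 and 14.1 CPM against 4.26, 1.70 and 2.76. Ddr2, a collagen receptor gene, had a fold of 0.258 and Col4a6, a chain of type IV collagen, one of 0.332. Rasgrf1, a Ras exchange factor gene, fell to a fold of 0.299, Tuba4a, an alpha-tubulin gene, to 0.318 and Ccdc129 to 0.295. Tuba4a shares 37.3% of its exonic bases with Stk16.

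**Figure D2:**
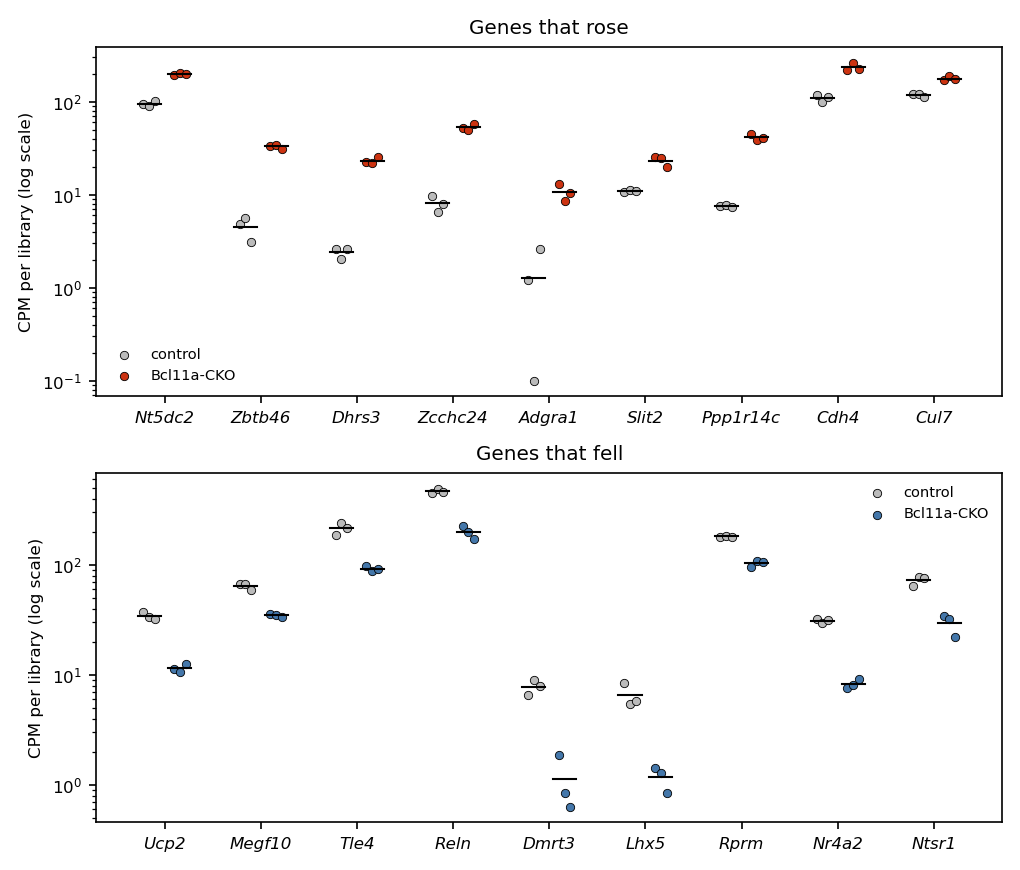
Points give CPM in each of the 3 control (grey) and 3 Bcl11a-CKO libraries (coloured) on a log scale, in the order of replicates 1 to 3, and lines give their mean; the library of Adgra1 at 0 CPM is drawn at 0.1. No control library overlaps a mutant library in any of the 18 genes, which the rule for naming required for those that rose or fell most.

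Of 12 genes of layer 6 corticothalamic neurons, 4 fell, 0 rose and 8 did not pass, and the median log2 fold change was -0.56. Over all genes tested, to be set beside this and the later lists, 1.24% rose and 0.696% fell. Without overlap, 9 of the 12 lay lower in the mutant libraries, against 13.9% of all genes tested. Tle4, a corepressor gene of these neurons (chromosome 19, 14448072 to 14598051), stood at 187.3, 241.8 and 216.2 CPM in the control and at 97.2, 87.5 and 91.0 in the Bcl11a-CKO (log2 fold change -1.16 ± 0.15, edgeR, adjusted p = 0.000888). Ntsr1, the neurotensin receptor gene that marks corticothalamic neurons, stood at 64.8, 77.4 and 76.5 CPM against 34.1, 32.4 and 21.9 (-1.23 ± 0.21, adjusted p = 0.00645). Rprm, reprimo, a cell-cycle arrest gene that marks layer 6, fell from 180.5, 182.1 and 180.1 CPM to 95.1, 108.8 and 105.6 (-0.83 ± 0.12, adjusted p = 0.00307). Thsd7b fell from 8.98, 7.47 and 7.42 CPM to 3.31, 3.19 and 2.76.

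The transcription factor genes that specify this layer were not among the calls. Tbr1, needed for layer 6 identity, stood at 432.3, 433.6 and 410.0 CPM against 418.8, 415.4 and 426.8 (log2 fold change -0.02 ± 0.16, edgeR, adjusted p = 0.977), with overlapping groups. Sox5, which controls the order in which deep-layer neurons are made, stood at 469.0, 434.3 and 423.4 CPM against 362.2, 376.6 and 404.3 and did not pass (adjusted p = 0.758). Zfpm2 stood at 66.8, 77.8 and 63.6 CPM against 39.8, 43.0 and 46.1 without overlap, and did not pass (-0.70 ± 0.20, adjusted p = 0.0973).

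In the list of subplate and layer 6b, the oldest neurons of the cortex, 2 of the 7 genes tested fell and 1 rose. Nr4a2, an orphan nuclear receptor gene (chromosome 2, 57106830 to 57124003), stood at 32.1, 29.4 and 31.6 CPM in the control and at 7.57, 8.09 and 9.14 in the Bcl11a-CKO (log2 fold change -1.93 ± 0.30, edgeR, adjusted p = 0.00464). Lpar1, a lysophosphatidic acid receptor gene, fell from 33.9, 26.2 and 38.8 CPM to 16.1, 16.4 and 16.6. Nxph4, a neurexophilin gene, went the other way, from 33.9, 35.7 and 44.3 CPM to 56.8, 59.2 and 59.5 (0.65 ± 0.14, adjusted p = 0.0239). Members of this list were thus called in both directions, with a median of -0.48 and 2 of the 7 genes above 0. Without overlap, 5 lay lower and 1 higher, against 13.9% and 13.2% of all genes tested.

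Of the 12 genes of layer 5 subcerebral neurons, none was called by edgeR, and 2 of them had an unadjusted p under 0.05. Fezf2, which specifies these neurons, stood at 256.1, 238.9 and 227.7 CPM against 246.8, 254.0 and 239.1 (log2 fold change 0.01, edgeR, adjusted p = 0.987). The list's median was -0.18, with 6 genes above 0 and 6 below.

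Of 10 genes of Cajal-Retzius cells, 3 fell, 0 rose and 7 did not pass. The median log2 fold change was -0.57, with 2 genes above 0. Lower without overlap were 5, against 13.9% of all genes tested. Reln (chromosome 5, 21884454 to 22344702) stood at 447.2, 489.7 and 459.7 CPM in the control and 226.7, 198.4 and 172.0 in the Bcl11a-CKO (log2 fold change -1.17 ± 0.15, edgeR, adjusted p = 0.00136). Lhx5, a LIM homeobox gene of these cells, fell from 8.38, 5.43 and 5.74 CPM to 1.42, 1.28 and 0.85 (-2.50 ± 0.36, adjusted p = 0.00236). Ndnf, which encodes a secreted neurotrophic factor, fell from 23.5, 27.1 and 29.9 CPM to 11.4, 7.45 and 7.44 (-1.52 ± 0.28, adjusted p = 0.0106). Trp73, the p53 relative made by Cajal-Retzius cells, stood at 13.2, 19.0 and 19.1 CPM against 13.2, 12.6 and 5.10, with groups that overlapped (adjusted p = 0.284).

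Downstream of Reelin, the genes for its receptors and adaptor were not called. Dab1, the adaptor phosphorylated when Reelin binds, stood at 409.7, 451.0 and 449.0 CPM against 357.2, 375.5 and 385.0 (log2 fold change -0.22, edgeR, adjusted p = 0.392). The receptor gene Vldlr stood at 105.7, 110.6 and 107.4 CPM against 84.0, 44.9 and 94.8 (edgeR, adjusted p = 0.663). Both genes were lower in every mutant library than in any control library, and Vldlr passed in the fits of E15.5 units alone. Itga3, an integrin subunit that takes part in neuronal migration, rose from 8.58, 12.2 and 12.2 CPM to 26.5, 21.9 and 20.4 (1.16 ± 0.24, adjusted p = 0.0231). Of the 20 genes on Reelin signalling and migration, Itga3 and Reln were the only ones called.

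Of the cell-cycle genes, 1 of 27 fell and 26 did not pass. All 27 had a log2 fold change below 0, against 46.8% of all genes tested with one above 0, and the median was -0.29. The summed level of the list was 2653 to 2866 CPM in the control libraries and 2138 to 2209 in the Bcl11a-CKO. Only Ccnd2, cyclin D2 of the G1 phase, was called: it stood at 651.5, 648.3 and 617.6 CPM against 422.8, 388.1 and 378.4 (log2 fold change -0.67 ± 0.13, edgeR, adjusted p = 0.0126). Mki67, the proliferation marker, stood at 353.1, 338.8 and 366.9 CPM against 265.9, 277.0 and 294.4 without overlap and did not pass (-0.35, adjusted p = 0.397). Mcm7 of the replicative helicase stood at 177.5, 170.3 and 165.5 CPM against 171.5, 162.4 and 165.2, with overlap.

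Of 16 radial glia genes, 1 rose, against 1.24% of all genes tested, and 13 had a log2 fold change below 0 (median -0.26). The intermediate filament gene Nes stood at 483.5, 432.9 and 452.5 CPM against 336.4, 315.5 and 340.7, just short of the threshold (log2 fold change -0.48 ± 0.12, edgeR, adjusted p = 0.0546). Pax6, the transcription factor of apical progenitors, stood at 93.5, 77.4 and 92.6 CPM against 74.8, 75.2 and 70.6 (adjusted p = 0.452). Lhx2, a LIM homeobox gene that keeps cortical identity, rose from 336.3, 332.1 and 340.1 CPM to 532.1, 480.1 and 469.1 (0.58 ± 0.13, adjusted p = 0.0294); it also belongs to the lists of upper-layer neurons and cortical areas.

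Of 12 intermediate progenitor genes, 2 rose and 2 fell, against 1.24% and 0.696% of all genes tested. Eomes, the T-box gene that defines these cells, rose from 228.6, 200 and 239.9 CPM to 345.2, 322.1 and 335.4 (log2 fold change 0.59 ± 0.14, edgeR, adjusted p = 0.0369). Insm1, a zinc-finger gene that drives their delamination, rose from 324.5, 300.6 and 325.1 CPM to 461.6, 442.8 and 417.5 (0.48 ± 0.10, adjusted p = 0.0198). The proneural gene Neurog1 fell from 11.6, 8.14 and 6.46 CPM to 1.42, 2.98 and 2.98 (-1.91 ± 0.38, adjusted p = 0.0188), and Gadd45g, a growth arrest gene, from 39.5, 36.4 and 45.5 to 24.4, 30.9 and 29.6. Its relative Neurog2 stood at 188.3, 176.0 and 202.1 CPM against 168.7, 163.3 and 169.0 and was not called (adjusted p = 0.372). Neurod1, which acts next in the lineage, rose from 51.3, 38.0 and 44.5 CPM to 80.9, 69.2 and 69.3 (0.70 ± 0.15, adjusted p = 0.0294) and was the only one of 16 pan-neuronal genes called.

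Of 16 upper-layer genes tested, 2 rose, 0 fell and 14 did not pass, and the median was 0.31. Without overlap, 10 lay higher in the mutant libraries, against 13.2% of all genes tested. Besides Lhx2, Dkk3 rose, from 6.78, 12.2 and 11.2 CPM to 17.5, 23.0 and 20.6 (log2 fold change 1.06 ± 0.24, edgeR, adjusted p = 0.0305). Pou3f2, a POU gene of upper-layer neurons, stood at 357.7, 386.8 and 389.6 CPM against 447.4, 459.0 and 483.8 and did not pass (0.30, adjusted p = 0.242).

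**Figure D3:**
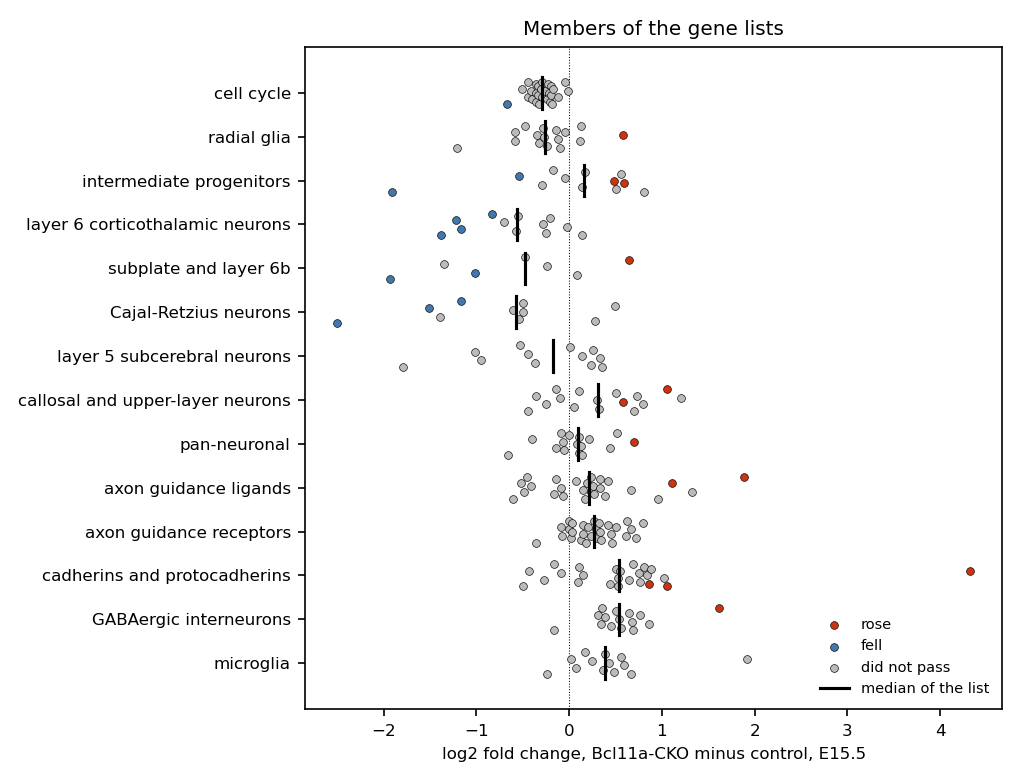
Each point is 1 gene tested, placed by its log2 fold change at E15.5 in the Bcl11a-CKO; red rose, blue fell, grey did not pass, and black bars give each list's median. Cell-cycle genes lie below 0 with a median of -0.29, and 14 of the 15 interneuron genes lie above it.

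Of 26 axon guidance ligand genes, 2 rose, 0 fell and 24 did not pass (median 0.22). Without overlap, 10 lay higher and 5 lower in the mutant libraries, against 13.2% and 13.9% of all genes tested. Sema3c, which encodes a secreted semaphorin, stood at 31.7, 39.4 and 36.1 CPM in the control and 140.1, 99.2 and 137.7 in the Bcl11a-CKO (log2 fold change 1.88 ± 0.28, edgeR, adjusted p = 0.00495). Slit2, a secreted ligand of Robo receptors, stood at 10.8, 11.3 and 11 CPM against 25.3, 24.9 and 19.8 (1.11 ± 0.12, adjusted p = 0.000278). Its relative Slit1 was far more abundant and was not called, at 194.1, 189.6 and 186.8 CPM against 159.7, 179.7 and 182.4 (adjusted p = 0.781). Draxin, which encodes a secreted axon repellent, stood at 376.0, 426.2 and 401.1 CPM against 290.8, 247.0 and 277.6 without overlap and did not pass (-0.52, adjusted p = 0.518). Neither Sema3c nor Slit2 overlapped between the groups.

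None of the 29 guidance receptor genes tested was called by edgeR, and 24 of them had a log2 fold change above 0. Without overlap, 17 lay higher, against 13.2% of all genes tested. Robo1, a Slit receptor gene, stood at 231.8, 255.6 and 270.0 CPM against 380.2, 460.5 and 489.3 (log2 fold change 0.79 ± 0.34, edgeR, adjusted p = 0.354). Plxna4, a semaphorin receptor gene, stood at 377.4, 409.4 and 413.8 CPM against 629.8, 697.2 and 639.6 (adjusted p = 0.187). Both were higher in every mutant library than in any control library and did not pass. Each passed in the fits of E15.5 units alone.

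Of 24 cadherin and protocadherin genes tested, 3 rose and 0 fell, against 1.24% and 0.696% of all genes tested. The median was 0.54. Without overlap, 13 lay higher and 3 lower in the mutant libraries, against 13.2% and 13.9% of all genes tested. Cdh4, R-cadherin (chromosome 2, 179442431 to 179899373), stood at 119.5, 99.5 and 111.5 CPM in the control and 220.0, 262.3 and 227.7 in the Bcl11a-CKO (log2 fold change 1.05 ± 0.13, edgeR, adjusted p = 0.000962). Pcdh17 rose from 23.1, 36 and 27.5 CPM to 56.1, 41.1 and 50.2 (0.86 ± 0.18, adjusted p = 0.0239), and Cdh23 is described above. Cdh2, the abundant N-cadherin, stood at 546.8, 563.7 and 562.6 CPM against 522.6, 517.1 and 528.6 and was not called (adjusted p = 0.731).

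Few genes of the Wnt and glutamate receptor lists were called. In the Wnt list, Nkd1, an inhibitor induced by Wnt, rose from 21.1, 23.3 and 18.9 CPM to 39.3, 45.1 and 45.5 (log2 fold change 1.01 ± 0.18, edgeR, adjusted p = 0.0097), and of 21 tested only Nkd1 and Dkk3 were called. Axin2, the common readout of Wnt activity, stood at 27.7, 31.2 and 31.8 CPM against 30.5, 30 and 28.7, with overlap. Of 19 glutamate receptor genes, Grik4, a kainate receptor subunit, rose, from 0.80, 2.71 and 3.11 CPM to 8.75, 5.54 and 7.87 (1.88 ± 0.40, adjusted p = 0.025).

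The chromatin partners of Bcl11a were not called. Of the 14 NuRD genes, the most abundant, Chd3, stood at 1809, 1788 and 1725 CPM against 1232, 1258 and 1278 (log2 fold change -0.51 ± 0.16, edgeR, adjusted p = 0.145). Chd5 stood at 86.0, 96.1 and 93.0 CPM against 152.4, 154.8 and 139.7 (0.73, adjusted p = 0.0553). Both had no overlap and lay in opposite directions. Of 17 BAF genes, 17 p53 and apoptosis genes, 22 voltage-gated channel genes and 7 immediate early genes, none was called either.

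Genes of interneurons, which come from outside the lineage that Cre acts in, had 1 call. Of 15 tested, 14 had a log2 fold change above 0, and the median was 0.54. Without overlap, 12 lay higher in the mutant libraries, against 13.2% of all genes tested. The summed level was 455.0 to 506.6 CPM in the control libraries and 691.5 to 738.3 in the Bcl11a-CKO. Only Npy, the neuropeptide Y gene, was called, at 10.8, 9.05 and 12 CPM against 36, 37.0 and 21.9 (log2 fold change 1.62 ± 0.26, edgeR, adjusted p = 0.00495). Lhx6, the homeobox gene of interneurons from the medial ganglionic eminence, stood at 66.4, 74.7 and 63.9 CPM against 119.2, 114.7 and 110.3 and did not pass (0.77, adjusted p = 0.4). Gad1, for an enzyme of GABA synthesis, stood at 29.1, 23.1 and 25.8 CPM against 40.9, 39.0 and 36.6. The part of these values in the other results was not tested.

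In the astrocyte list, which at this age overlaps with radial glia, 2 of 7 tested rose and 1 fell. Of all genes tested, 1.24% rose and 0.696% fell. Aldh1l1, a folate enzyme used as an astrocyte marker, rose from 4.79, 6.79 and 9.09 CPM to 47.3, 34.1 and 41.5 (log2 fold change 2.69 ± 0.41, edgeR, adjusted p = 0.00523). Gfap, the glial filament gene, rose from 0.20, 0.90 and 0.96 CPM to 5.21, 2.98 and 4.68. Aldoc, a glycolytic aldolase of radial glia and astrocytes, fell from 193.9, 190.5 and 179.9 CPM to 98.4, 95.0 and 105.2 (-0.93 ± 0.19, adjusted p = 0.022). Aqp4, the astrocyte water channel, stood at 0.90 to 1.60 CPM in the control and 1.91 to 2.84 in the Bcl11a-CKO (adjusted p = 0.433).

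Of the other cells a dissection can hold, none of 13 microglia genes was called by edgeR and 12 had a log2 fold change above 0, with a summed level of 89.0 to 97.1 CPM against 111.8 to 121.4. The summed level of endothelial and pericyte genes was 221.5 to 239.2 CPM in the control and 233.0 to 242.7 in the Bcl11a-CKO. That of meninges genes was 13.9 to 17.4 against 12.5 to 16.8, with overlap in both lists. No gene of the lists of oligodendrocyte lineage, striatum, thalamus, hippocampus, erythroid cells or mitochondrial transcripts was called.

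A pair of noncoding transcripts that lie beside Bcl11b, named here after their values were seen, went from no count to a low level. 4930465M20Rik (chromosome 12, 107723740 to 107735496) had 0 counts in the 3 control libraries and 16, 17 and 24 in the Bcl11a-CKO, at least 19.0-fold higher against a floor of 3 counts over the control group (edgeR, adjusted p = 0.0294). Gm15208 (chromosome 12, 107744136 to 107784041) had 0 counts in the control and 14, 14 and 16, at least 14.7-fold higher (adjusted p = 0.00612). They end 174906 and 126361 bases from the near end of Bcl11b, which itself did not pass. At E13.5 the control libraries held 0 to 10 and 0 to 7 counts of them, and at E15.5 the Bcl11ab-DCKO libraries held 81 to 115 and 42 to 65.

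**Figure D4:**
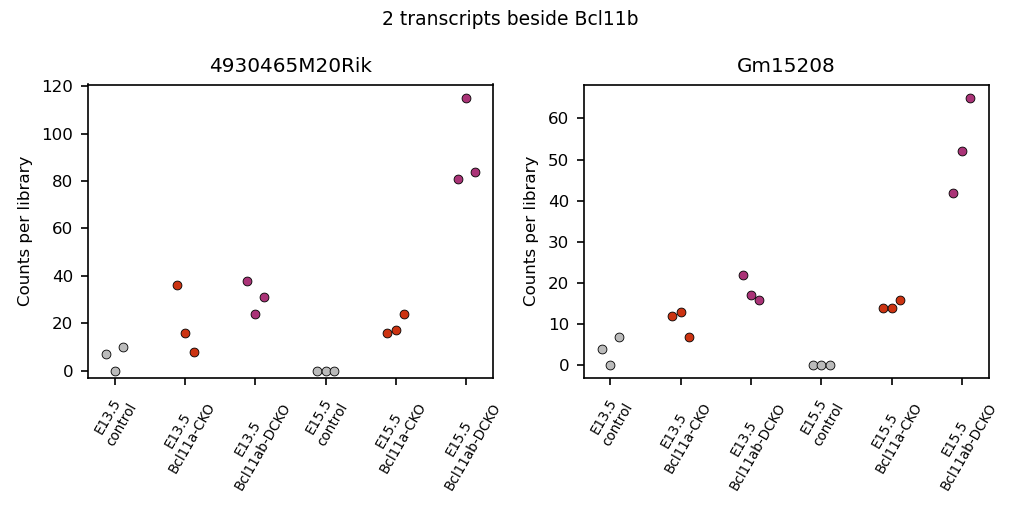
Counts per library of 4930465M20Rik and Gm15208 in the 6 embryonic groups, 3 libraries each (control grey, Bcl11a-CKO red, Bcl11ab-DCKO purple). At E15.5 the 3 control libraries have no count of either transcript, and each mutant library has at least 14.

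Other called genes had no count in 1 group, also named after their values were seen. Esrrb, an orphan nuclear receptor gene, had 22 counts over the Bcl11a-CKO libraries (at least 7.33-fold higher), Them5, a thioesterase gene, 23 (at least 7.66-fold) and Gm16013 14 (at least 4.66-fold). Adamts12, a secreted metalloprotease gene, had 16 counts over the control libraries and none in the Bcl11a-CKO (at least 5.34-fold lower). All 4 were near the detection limit.

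The effect at E15.5 was then set against that at E13.5, 2 days earlier, when fewer projection neurons have been made. At E13.5, 388 genes were called (2.6%). Called at both ages were 93 genes, 32.1% of the E15.5 calls and 24.0% of the E13.5 calls, and 1 of them, Rian, went in opposite directions. The genes that rose at E15.5 had a median log2 fold change of 1.01 there and 0.49 at E13.5, and those that fell -0.93 and -0.28; they were chosen by their E15.5 values, so the larger size there is not a result.

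The gene lists gave other medians at E13.5 than at E15.5, values given here with no test between ages. That of the cell-cycle list was -0.20 at E13.5 and -0.29 at E15.5, and that of interneurons 0.52 and 0.54. The layer 6 list had a median of -0.33 and -0.56. The Cajal-Retzius list had one of -0.01 and -0.57, and the subplate list 0.19 and -0.48. In the Cajal-Retzius list 1 gene was called higher and 1 lower at E13.5. The lower one was Reln (log2 fold change -0.58 ± 0.13, edgeR, adjusted p = 0.024). For Reln the difference between ages did not pass (-0.59 ± 0.20, edgeR, adjusted p = 0.407).

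A test of the difference itself, the E15.5 effect minus the E13.5 effect, passed for 11 genes (0.0736%), 4 higher (0.0268%) and 7 lower (0.0468%) at E15.5, and 1163 had an unadjusted p under 0.05. The count rests on single libraries: without replicate 1 of the E15.5 control or Bcl11a-CKO it was 4 or 2, without replicate 1 of the E13.5 control or Bcl11a-CKO 19 or 29, and without E13.5 Bcl11a-CKO replicate 3 it was 6. It was 5 without the R and L pair of the E15.5 Bcl11a-CKO. At E13.5 the titles form 2 sets, with replicate 1 of each group in one, and with the set as a term of the fit 12 genes passed. Nt5dc2 and Ryr3 kept the call under every alternative. Nt5dc2 stood at 267.9, 246.6 and 273.0 CPM in the E13.5 control and 244.2, 290.9 and 269.6 in the E13.5 Bcl11a-CKO, with overlapping groups, before the rise at E15.5 (difference 1.03 ± 0.11 on the log2 scale, edgeR, adjusted p = 0.00185). Ryr3, a ryanodine receptor gene of intracellular calcium release, was higher in the mutant at E13.5, at 14.8, 14.5 and 14.5 CPM against 45.4, 40.7 and 39.5. At E15.5 it stood at 136.4, 130.5 and 130.1 CPM against 115.5, 101.1 and 103.1, which did not pass (difference -1.82 ± 0.20, adjusted p = 0.00185).

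Slit2 and Tle4 were called at E15.5, while their E13.5 groups overlapped. Slit2 stood at 36.1, 40.1 and 44.8 CPM in the E13.5 control and 37.7, 42.1 and 42.6 in the E13.5 Bcl11a-CKO (difference between ages 1.09 ± 0.15, edgeR, adjusted p = 0.0091). In the control its level fell from E13.5 to E15.5 with a log2 fold change of -1.87. Tle4 stood at 69.1, 53.3 and 59.9 CPM against 53.1, 69.7 and 70.4 at E13.5 (difference -1.25 ± 0.19, adjusted p = 0.0187), and in the control it rose with age by 1.78 on the log2 scale. Ndnf stood at 1.75, 2.82 and 2.26 CPM against 5.94, 3.79 and 6.37 at E13.5, the other way from E15.5 (difference -2.72 ± 0.42, adjusted p = 0.0187).

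**Figure D5:**
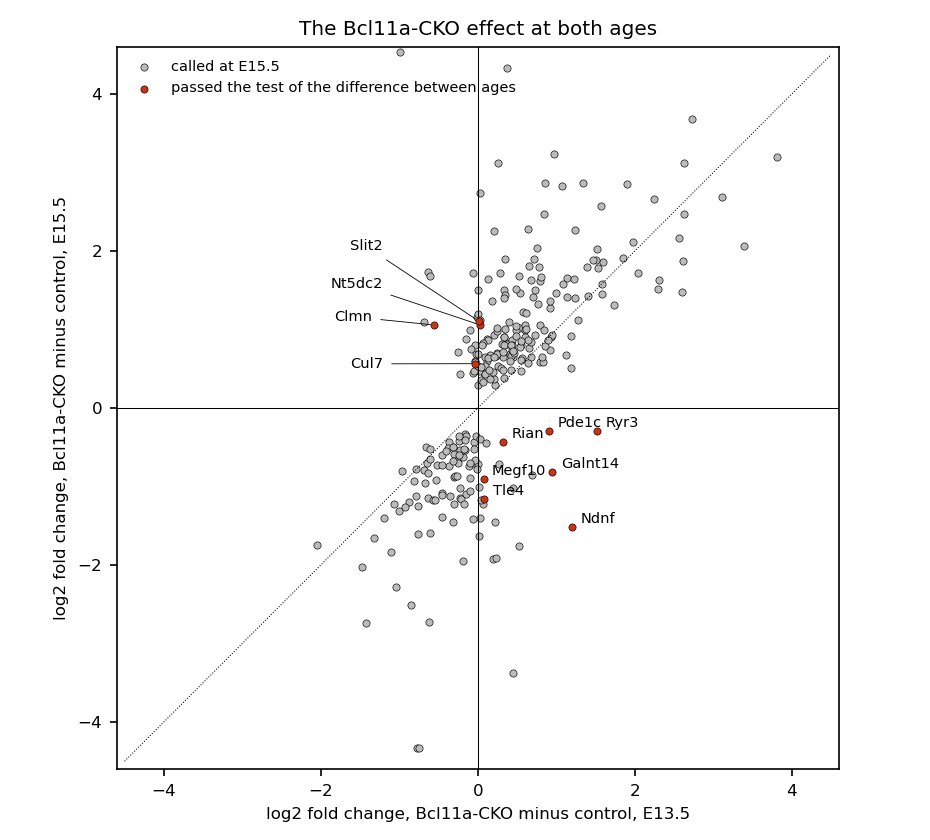
Log2 fold changes of the Bcl11a-CKO against control at E13.5 (x) and E15.5 (y) for genes called at E15.5 and the 11 genes whose effect differed between ages (red, named); the dotted line marks equal effects, and 6 genes with no count in 1 E15.5 group are not drawn. Most called genes lie on the same side of 0 at both ages.

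At E15.5 the Bcl11ab-DCKO libraries were compared with the same control, so the 2 comparisons share it and are given side by side only. Slit2 stood at 119.5, 119.7 and 116.9 CPM in the Bcl11ab-DCKO (log2 fold change 3.43, edgeR, adjusted p = 1.78e-10), against 1.11 in the Bcl11a-CKO. Tle4 stood at 40.3, 40.0 and 36.1 CPM (-2.43 against -1.16), and Nt5dc2 at 419.4, 417.2 and 419.1 (2.14 against 1.06). Ntsr1 had a log2 fold change of -4.88 against -1.23. Npy had one of -0.31 (adjusted p = 0.478), against 1.62 in the Bcl11a-CKO, and Ucp2 -1.33 against -1.60. The difference between the mutants was not tested here.

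At P0 the deposited table lists 109 of the 186 genes that rose at E15.5 and 71 of the 104 that fell, as CPM made by the authors. It leaves genes out, so no test was made. Of those listed, 70 that had risen had a higher mean in the P0 Bcl11a-CKO, 33 of them without overlap, and 39 a lower one, 9 without overlap. Of those that had fallen, 40 had a lower mean, 13 without overlap, and 31 a higher one, 11 without overlap. Of all 13423 genes listed, 7335 had a higher mean, 2553 without overlap, and 6086 a lower one, 2010 without overlap. Bcl11a itself stood at 492.4, 319.3 and 417.1 CPM in the control and 473.6, 449.6 and 483.2 in the P0 Bcl11a-CKO, with overlap. Reln stood at 512.2, 398.8 and 404.6 CPM in the P0 control and 163.4, 177.6 and 181.5 in the P0 Bcl11a-CKO. Nr4a2 stood at 110.3, 103.7 and 91.8 CPM against 1.92, 2.23 and 1.84. Sema3c stood at 51.9, 54.3 and 63.7 CPM against 157.2, 141.0 and 135.0, and Sla at 331.9, 335.0 and 266.9 against 114.3, 117.2 and 107.3. Each of these 4 lay in the same direction as at E15.5, without overlap. Lpar1, which fell at E15.5, went the other way at P0, at 3.49, 12.1 and 6.58 CPM against 13.6, 15.6 and 11.4, with overlap. Slit2, which rose at E15.5, had nearly equal means at P0, at 25.3, 30 and 31.5 CPM against 30.9, 27.4 and 28.2 (log2 ratio -0.004). Ucp2, which fell at E15.5, had a slightly lower mean, at 14.9, 22.7 and 12.4 CPM against 17.1, 14.6 and 14.7 (log2 ratio -0.106). The P0 groups of Slit2 and Ucp2 overlapped. The P0 groups also differed widely in a mitochondrial and a red-cell transcript: mt-Atp8 of the mitochondrial genome stood at 15.3 to 17.5 CPM in the control and 335.5 to 416.9 in the Bcl11a-CKO, and the hemoglobin gene Hba-a2 at 0.78 to 1.64 against 144.2 to 176.2. The part of this difference in the other P0 values was not tested.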

How the data were processed

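RNA from dissected, flash-frozen cortex was sequenced. Per the submitters' processing notes, HISAT2 2.0.4, StringTie 1.3.0 and edgeR were named with the build mm10; no source used here gives their order or settings. The authors deposited embryonic gene counts for 34745 genes and, for P0, CPM values of 13423 genes. In the deposited P0 values 99.993 to 100% gave whole reads within a tolerance of 0.00051 CPM; the P0 values were not tested here. The authors' mean log2 CPM and log2 fold changes, deposited beside them per the file headers, were not used.

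Counts of R and L libraries with the same title number were summed. All 16 embryonic units of 6 groups were fitted with edgeR 4.0.16 in R 4.3.3 (filterByExpr, TMM, robust quasi-likelihood test, Benjamini-Hochberg threshold 0.05), with the difference between ages as a contrast; the script was tested on simulated data. Alternatives used DESeq2 1.42.0, limma 3.58.1, other scalings, filters and libraries left out. Reading of strand by the counting is not stated. The members and gene lists were chosen with earlier results of these data known. Named genes were Bcl11a and Bcl11b, the 14 that rose and the 14 that fell most (group mean of 5 CPM or more, no overlap), per list up to 6 called and the 3 most abundant members, and up to 6 in each direction for the difference between ages. Zfpm2, Trp73, Dab1, Vldlr, Mcm7, Pax6, Slit1, Robo1, Axin2, Chd5, Gad1, Aqp4, Otx1, mt-Atp8 and the quality genes were named for their role after their values were seen. Some genes that the rule chose are not reported here. Promoters on chromosome 18, where Syt4 and Megf10 lie, were left out.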

Additional observations from a re-analysis of the deposited data

Results flagged for a closer look

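For 11 genes the effect of Bcl11a loss differed between ages by the test of the difference itself (edgeR's quasi-likelihood test, E15.5 minus E13.5 on the log2 scale). It was more positive at E15.5 for Nt5dc2 (1.03), Slit2 (1.09), Cul7, a cullin of a ubiquitin ligase (0.60), and Clmn, an actin-binding membrane protein gene (1.61). It was more negative for Tle4 (-1.25), Megf10 (-0.98), Ndnf (-2.72), Ryr3 (-1.82), Galnt14, a glycosyltransferase gene (-1.77), Pde1c, a cyclic nucleotide phosphodiesterase gene (-1.21), and the imprinted noncoding RNA Rian (-0.76). Nt5dc2 and Ryr3 kept the call under each of the 21 alternatives, and the other 9 lost it under at least 1.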

How the results depend on the processing

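No paired analysis was possible because the E15.5 control and Bcl11a-CKO libraries share no title number. The count of 290 calls lay within 1.5 times of that value under other scalings, filters, DESeq2 (383) and a limma-voom fit with the title number as a random effect (351). With the 2 sets of E13.5 titles as a term, an alternative added after seeing the data, it was 338, and 12 genes differed between ages. It was 646 with each library as its own sample, 716 in the 4 units alone and 609 in the 7 units of E15.5, and the cause was not tested. Leaving out 1 library gave 62 to 300 calls, and leaving out the R and L pair gave 105 (control) or 82 (Bcl11a-CKO); these fits leave 1 unit in a group where they drop a whole unit, and that unit is assumed to vary like the other groups. The count of 11 genes that differed between ages became 64 with DESeq2, 61 with each library as its own sample, 5 without the R and L pair of the Bcl11a-CKO, and 2 to 29 without 1 library. Near Bcl11a, 1 gene, Otx1, was called with DESeq2, with each library as its own sample, in the 4 or 7 units, with the E13.5 sets as a term (1 call each) and without Bcl11a-CKO replicate 3, so that leaving out 1 library gave 0 to 1. The looser motif TGNCCA lay in 45.6% of windows of genes that rose and 34.6% of those that fell, against 41.9% of all genes tested. Of 30 named genes that were not called, 15 passed under at least 1 alternative, most often in the 4 or 7 units or with each library as its own sample: Nes, Chd5, Otx1, Zfpm2, Chd3, Bcl11a, Plxna4, Robo1, Lhx6, Vldlr, Mki67, Draxin, Pou3f2, Gad1 and Galnt14. Axin2 changed sign with each library as its own sample (-0.023 on the log2 scale) and ranged from -0.080 to 0.025 without 1 library. Fezf2 ranged from -0.012 to 0.075 without 1 library and was -0.052 without the control R and L pair. With 4313142 to 5173155 counts a library, genes of a few counts have wide errors.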
